A study of Mus musculus with 20 samples.

Results

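The 10 genes described here encode epithelial adhesion proteins (Cdh1, Epcam, Cldn3, Cldn4 and Cldn7), the intermediate filament vimentin (Vim) and transcription factors of epithelial-mesenchymal transition, or EMT (Zeb1, Zeb2, Snai2 and Twist1). They were taken by name from a table of 43346 genes counted in 20 mouse breast tumors, and no measured value enters the rule. However, these genes and the gene lists used below were chosen with earlier results of these data known. All 10 passed the filter on low counts, which left 18883 genes for testing.

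In an epithelium, E-cadherin (Cdh1) joins neighboring cells at adherens junctions, and claudins form the strands of the tight junctions above them. EpCAM is a membrane protein of epithelial cells that binds and stabilizes claudin-7. During EMT, factors of the ZEB, SNAIL and TWIST families repress such genes, in part by binding a short DNA motif called the E-box, while cells gain vimentin and matrix proteins. In a piece of tumor, vimentin and these factors are also made by fibroblasts, endothelial cells and leukocytes.

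Each of the 20 tumors came from a different female [BALB/c-neuT x FVB/J] F1 mouse, which carried the activated rat Her2/neu oncogene (neuT) from its BALB/c father and developed breast tumors spontaneously. All tumors shared this genotype, no untreated or normal mammary tissue was measured, and the mice were up to 20 weeks old, with the age of each not given in the sources used here. The sample titles divide the tumors into 9 named Lo and 11 named Hi, words whose meaning the sources do not give, so the comparison of Lo with Hi and the relations between genes over all 20 tumors are the comparisons that the design allows. RNA came from small frozen pieces of bulk tumor, in which fewer cells of a type and less RNA per cell cannot be told apart.

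The total count on genes was 38765682 in the shallowest and 65465755 in the deepest tumor, and no pair of tumors had identical counts. Genes over a ribosomal RNA locus took 6.29% to 27.7% of the counts, with a mean of 18.4% ± 6.08 (SD, n = 9) in Lo and 13.7% ± 3.13 (SD, n = 11) in Hi tumors. The epithelial identity of the tissue was checked with 8 markers, all of which were detected in all tumors. The keratins Krt8 and Krt18 were at 437 ± 69.0 and 558 ± 112 RPKM (counts scaled to the listed gene length and the total count; mean ± SD, n = 20), and the summed level of the epithelial markers ranged from 1777 to 3209 CPM (counts scaled to a common library size with TMM factors). The tumor pieces also held RNA of other cell types, with a summed level of 642 to 2380 CPM for 10 fibroblast markers, 59.6 to 144 CPM for 8 endothelial markers and 151 to 233 CPM for 10 leukocyte markers.

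Adhesion genes were expressed far above the EMT factors in all 20 tumors. On the RPKM scale, which allows different genes to be compared, Epcam had the highest level of the 10 genes at 522 ± 53.3 RPKM (mean ± SD, n = 20), followed by Cldn3 at 242 ± 36.7 RPKM. Both genes stood apart, since Epcam was above Cldn3 in 20 of 20 tumors (on average 2.19 times) and Cldn3 was above Cdh1 in 20 of 20 tumors (3.25 times). Cdh1 at 75.0 ± 7.94, Cldn7 at 69.6 ± 8.95, Vim at 51.9 ± 11.99 and Cldn4 at 47.0 ± 11.9 RPKM formed a second level with overlapping ranges. Within it, Cdh1 was above Cldn7 in 15 of 20 tumors and Vim was above Cldn4 in 14 of 20 tumors.

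The 4 factors formed the lowest level. Twist1 was at 0.924 ± 0.261 RPKM, Zeb2 at 0.618 ± 0.0810, Zeb1 at 0.607 ± 0.116 and Snai2 at 0.483 ± 0.150 RPKM (mean ± SD, n = 20). The next gene above them, Cldn4, exceeded Twist1 24.2 to 138 times within a tumor. Among the factors, Twist1 was above Zeb2 in 19 of 20 tumors and above Snai2 in 20 of 20, whereas Zeb2 and Zeb1 could not be ordered, with Zeb2 higher in 9 of 20 tumors. The order within the second and the lowest level rests on the listed length of each gene, which exceeds that of any coding transcript in the GENCODE M21 annotation by far for Vim, Cldn7, Zeb1 and Zeb2 and slightly for Cdh1 and Snai2. With the length of the longest coding transcript instead, Vim was at 112 and Cldn7 at 102 RPKM, both above Cdh1 at 77.4 RPKM, and Zeb2 (1.33) and Zeb1 (1.06) exceeded Twist1 (0.918).

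**Figure D1:**
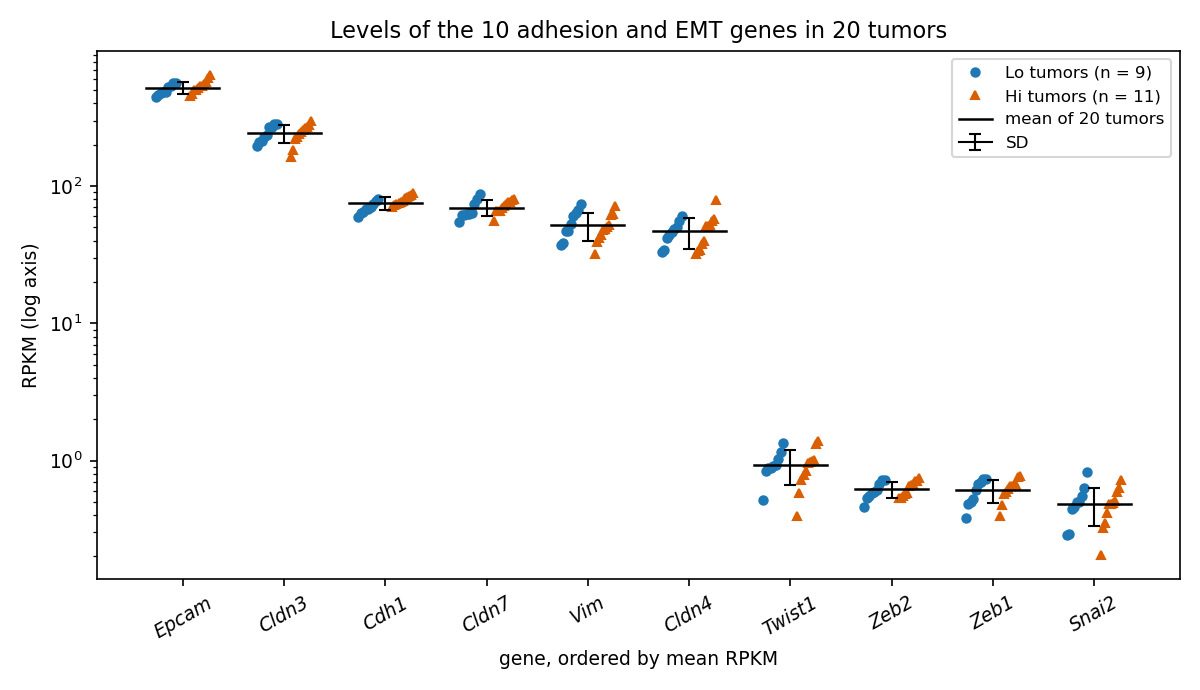
RPKM (log axis) of the 10 genes, ordered by mean, in each of 9 Lo tumors (circles) and 11 Hi tumors (triangles), with the mean of the 20 tumors (line) and its SD (bar). Epcam, Cldn3, Cdh1, Cldn7, Vim and Cldn4 lie between 32.1 and 647 RPKM, and Twist1, Zeb2, Zeb1 and Snai2 between 0.206 and 1.399 RPKM.

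Cdh1 (ENSMUSG00000000303; Chr8: 106603351 to 106670246, mm10) had the smallest spread of the 10 genes in CPM. Its level was 272 CPM in the lowest tumor (Lo_8), 345 in the median and 379 in the highest (Hi_5), a span of 1.39 times over 20 tumors. Its SD on the log2 CPM scale was 0.11, smaller than that of all but 4.91% of the 18883 genes tested and far above the 0.011 that counting error alone gives. On the log2(RPKM + 1) scale, which uses no TMM factors, its SD of 0.15 was above that of Epcam (0.14). No tumor lacked E-cadherin mRNA, and Lo_8 was the only one below 300 CPM. Among the 23 genes named Cdh in the table, Cdh1 was at the highest RPKM level and made up 76.3% to 83.7% of their summed RPKM in a tumor. N-cadherin (Cdh2), whose gain often accompanies the loss of E-cadherin in EMT, was at 0.135 ± 0.0496 RPKM (n = 20).

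Epcam (ENSMUSG00000045394; Chr17: 87635979 to 87651106) was at 876 CPM in the lowest tumor (again Lo_8), 1054 in the median and 1334 in the highest (Hi_11). With an SD of 0.15 on the log2 CPM scale it varied less than most genes, since 17.9% of all genes tested had a smaller SD.

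The 3 claudins ranked first among the 25 claudin genes of the table, and together they made up 73.3% to 84.3% of the summed claudin RPKM of a tumor. The next claudins were Cldn1 at 31.2 ± 2.93 and Cldn10 at 16.9 ± 4.11 RPKM, and 12 of the 25 had a mean of at least 1 RPKM. Cldn7 (ENSMUSG00000018569; Chr11: 69964779 to 69967885) varied little, from 113 CPM in Hi_4 over a median of 132 to 158 in Hi_11, with an SD of 0.14 on the log2 scale. Cldn3 (ENSMUSG00000070473; Chr5: 134986214 to 134987472) ranged from 194 CPM in Hi_3 over a median of 305 to 378 in Hi_11, with an SD of 0.22. Cldn4 (ENSMUSG00000047501; Chr5: 134945126 to 134946934) ranged from 54.9 CPM in Hi_3 over a median of 87.8 to 146 in Hi_11. Cldn4 was the most variable adhesion gene, with an SD of 0.35 that exceeded that of 95.1% of the 3849 genes within 1 log2 unit of its mean level.

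Cldn3 and Cldn4 are neighbors, separated by 39279 bases that hold no other gene of the table. Cldn3 was above Cldn4 in every tumor, by 3.72 to 8.68 times in RPKM. One tumor, Hi_11, had the highest level of Epcam, Cldn3, Cldn4 and Cldn7, and Hi_3 had the lowest level of Cldn3 and Cldn4.

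The motif CACCTG, an E-box to which ZEB and SNAIL factors are known to bind, was searched on both strands in RefSeq promoter windows (GRCm38.p6, from 250 bases before to 50 bases after a transcription start), which matched 7 of the 10 genes. On the opposite strand it reads CAGGTG. Cdh1, Zeb1 and Snai2 had no window and were not searched. In the windows set at the listed gene starts, Epcam and Cldn4 each held 2 matches and Cldn3 held 1, whereas Cldn7 and Twist1 held 0, although a second Cldn7 window, 642 bases downstream, held 2. The windows of Vim (384 bases from the listed start) and Zeb2 (47 to 7118 bases from it) held 0. Of all 32851 windows in the table, 20.2% held at least 1 match and 2.88% at least 2. Stretches with a match are shown for Epcam, Cldn4 and Cldn3, whose windows at the listed start hold one, because the levels of their possible repressors are compared with theirs, and capitals mark the motif. Epcam (chr17:87635729-87635978, plus strand) and Cldn4 (chr5:134946935-134947184, minus strand) are shown as the 250 bases before the start. For Cldn3 (chr5:134986236-134986259, plus strand) and for the second match of Cldn4 (chr5:134946909-134946932, minus strand), 24 transcribed bases are shown.
Epcam, before the start: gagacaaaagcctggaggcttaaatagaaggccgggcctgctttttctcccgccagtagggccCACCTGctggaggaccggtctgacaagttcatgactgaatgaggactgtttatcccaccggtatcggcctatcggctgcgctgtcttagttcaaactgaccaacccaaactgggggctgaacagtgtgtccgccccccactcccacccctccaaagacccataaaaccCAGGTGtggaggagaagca
Cldn4, before the start: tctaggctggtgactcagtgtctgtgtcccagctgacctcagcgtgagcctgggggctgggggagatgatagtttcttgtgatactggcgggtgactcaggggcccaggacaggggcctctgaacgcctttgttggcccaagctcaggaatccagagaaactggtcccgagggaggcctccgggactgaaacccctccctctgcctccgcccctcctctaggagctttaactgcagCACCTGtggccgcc
Cldn4, transcribed: ttcttgttgCAGGTGcaggcagga
Cldn3, transcribed: agccacaggCAGGTGcaggggcag
The matches of Epcam began 187 and 19 bases before the start, the matches of Cldn4 began 14 bases before it and at transcribed base 12, and the match of Cldn3 began at transcribed base 32. Whether a factor was bound there was not measured.

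Vim (ENSMUSG00000026728; Chr2: 13573927 to 13582826) was at 148 CPM in the lowest tumor (Hi_5), 232 in the median and 379 in the highest (Lo_11). Its SD of 0.36 on the log2 scale was above that of 94.4% of the 1081 genes of similar level. The tumor with the least Vim was the one with the most Cdh1, but the second highest Cdh1 level (378 CPM in Hi_11) stood beside a Vim level of 228 CPM, close to its median. The ratio of Cdh1 to Vim on the RPKM scale ranged from 0.935 in Lo_2 to 2.65 in Hi_5 and was above 1 in 18 of 20 tumors, a count that rests on the listed lengths.

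Zeb2 (ENSMUSG00000026872; Chr2: 44983634 to 45117395), a zinc finger repressor, was the steadiest factor, at 9.85 CPM in Lo_3, 12.1 in the median and 15.5 in Lo_4, with an SD of 0.20 on the log2 scale. Its relative Zeb1 (ENSMUSG00000024238; Chr18: 5591860 to 5775467) was at 4.02 CPM in Hi_11, 6.09 in the median and 8.84 in Lo_6, with an SD of 0.29. Hi_11, which had the least Zeb1, was the tumor with the most Epcam and the most of each of the 3 claudins. Without a stated strand setting, reads of antisense genes cannot be told from reads of the ZEB genes: Gm10125 was counted at up to 21.6% of the Zeb1 count and Zeb2os at up to 11.1% of the Zeb2 count in a tumor.

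Twist1 (ENSMUSG00000035799; Chr12: 33957671 to 33959817), a basic helix-loop-helix factor, was at 0.664 CPM in Hi_4, 1.55 in the median and 2.40 in Lo_4. Snai2 (ENSMUSG00000022676; Chr16: 14705852 to 14709395), which encodes the zinc finger repressor SLUG, was at 0.436 CPM in Hi_4, 1.02 in the median and 1.83 in Lo_4. For both genes, Hi_4 was the lowest and Lo_4 the highest tumor. They had the largest SDs of the 10 genes, 0.42 for Twist1 and 0.46 for Snai2 on the log2 scale, but also the fewest reads, with 35 to 148 counts of Twist1 and 23 to 81 counts of Snai2 per tumor. Counting error amounted to 16.6% of the log2 variance of Twist1 and 21.9% of that of Snai2, and genes of similar level had median SDs of 0.41 and 0.47.

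**Figure D2:**
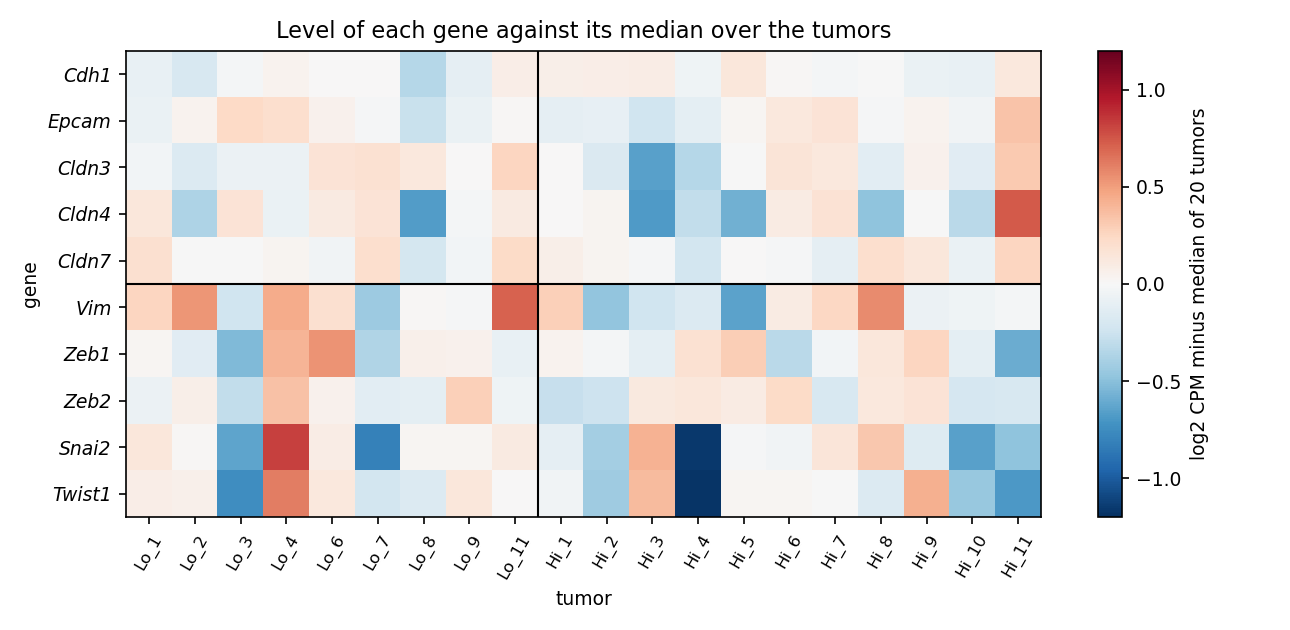
Level of each gene in each tumor as log2 CPM minus the median of the 20 tumors (color scale, from -1.18 to 0.82), with adhesion genes above the horizontal line and Lo tumors left of the vertical line. Hi_11 is above the median in all 5 adhesion genes and below it in Zeb1, Zeb2, Snai2 and Twist1, and Hi_4 is lowest in Snai2 and Twist1.

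The 45 pairs of these genes were compared by the Pearson correlation (r) of log2 CPM over the 20 tumors, and a pair was called only if each gene had an adjusted p under 0.05 in the edgeR quasi-likelihood fit of all genes on the other. Among the 10 pairs of adhesion genes, 9 had a positive r (median 0.41) and 0 were called. Among the 10 pairs of Vim and the factors, all 10 had a positive r (median 0.45) and 1 was called. In all 10 of these pairs r was higher in Lo than in Hi tumors. It was 0.80 in Lo and 0.05 in Hi for Zeb1 with Snai2, and 0.89 and 0.25 for Zeb2 with Twist1. For Vim with Zeb1 it was 0.44 and -0.16. Only Snai2 with Twist1 had similar values in both, and these differences were not tested. Among the 25 pairs of an adhesion gene with Vim or a factor, 16 were negative and 9 positive (median -0.04), with values from -0.41 to 0.23, and 0 were called. Of the 45 pairs, 11 had an unadjusted permutation p under 0.05, and none of the 11 joined an adhesion gene to Vim or a factor. For all genes, the edgeR fits give a background by another test. There, from 906 (on Zeb1) to 4001 (on Vim) of 18882 genes had an unadjusted p under 0.05.

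The called pair was Snai2 with Twist1. Its r was 0.84 (permutation p = 3e-05, 100000 permutations, two-sided) and its Spearman rho was 0.69 (permutation p = 0.00101). Twist1 rose by 0.78 ± 0.14 (SE) log2 units per log2 unit of Snai2, with an adjusted p of 0.0098 in edgeR's fit on Snai2, in which 0.694% of all genes were called. In the fit on Twist1, where 0.8% of all genes were called, Snai2 had an adjusted p of 0.00492. The relation was present within both sets of tumors, with an r of 0.86 in Lo and 0.84 in Hi. Without Lo_4 and Hi_4, r was 0.71. In the edgeR fits without the 2 most distant tumors, the slope was 0.66 for Twist1 on Snai2 and 0.93 for Snai2 on Twist1, against 0.78 and 0.96 over all tumors, and neither was called (adjusted p of 0.338 and 0.135). It was also not called with the fibroblast marker score as a covariate, as described below.

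Epcam with Cldn4 had the highest r of the adhesion pairs at 0.69 (permutation p = 0.00074), with a rho of 0.55 (permutation p = 0.0129). In edgeR's fit on Epcam, in which 0.869% of all genes were called, Cldn4 rose by 1.57 ± 0.36 (SE) log2 units per log2 unit (adjusted p = 0.0411), but in the fit on Cldn4, in which 0% of all genes were called, Epcam had an adjusted p of 0.587, so the pair was not called. Its r was 0.53 in Lo and 0.78 in Hi tumors, and 0.45 without Lo_8 and Hi_11. The neighbors Cldn3 and Cldn4 had an r of 0.63 (permutation p = 0.0033) and a rho of 0.59 (permutation p = 0.00713), with an r of 0.19 in Lo and 0.77 in Hi tumors, and adjusted p-values of 0.0792 and 0.604 in the edgeR fits. For Epcam with Cldn3 the value over all tumors (0.49) joined opposite values, -0.37 in Lo and 0.89 in Hi, and this difference was not tested. Cdh1 had an r of 0.47 with Cldn7 (0.28 without Lo_2 and Lo_8) and of -0.01 with Cldn3.

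Pairs of an adhesion gene with its possible repressors were weak. Cldn4 with Zeb1 had the most negative r at -0.41 (permutation p = 0.0717), with a rho of -0.41 (permutation p = 0.0737), and edgeR's adjusted p was 0.675 and 0.904 in the fits on each. Without Hi_3 and Hi_11 this r was -0.29. Cdh1 had an r between -0.08 and 0.05 with the 4 factors and of -0.19 with Vim. Vim had an r of 0.52 with Snai2 (permutation p = 0.0172; rho 0.57, permutation p = 0.00922), which edgeR did not call (adjusted p = 0.167 and 0.171), and 0.16 to 0.32 with the other 3 factors. The r of Vim with Snai2 was 0.75 in Lo and 0.28 in Hi tumors.

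**Figure D3:**
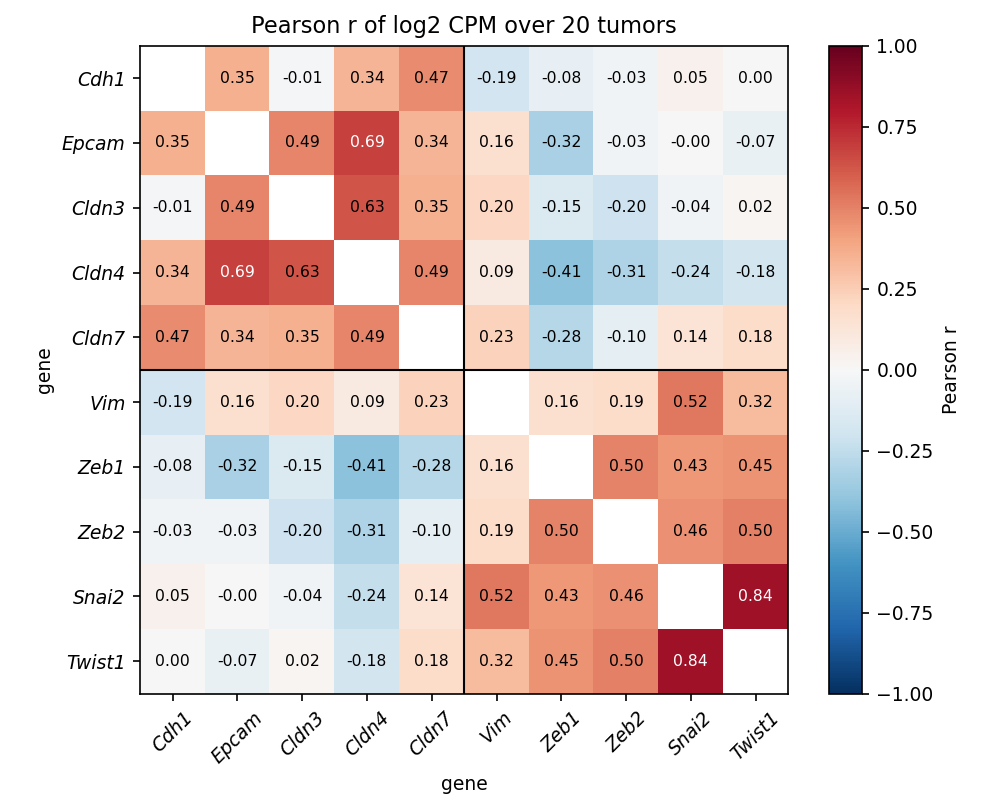
Pearson r of log2 CPM over 20 tumors for each of the 45 pairs of the 10 genes, with lines between the adhesion genes and Vim with the factors. The upper left block and the lower right block are mostly positive, up to 0.69 and 0.84, and the blocks that join them lie between -0.41 and 0.23.

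The genes around these members were read from 16 lists of junction, EMT and cell type genes, each gene in the same fits over all genes. Over the 1400 comparisons of a list gene with a member, 39 were called, 38 of them positive (Myh11 with Snai2 counts in 2 lists), and 4 of 160 combinations of a list and a member held 5 or more called genes. Those 4 combinations all involved a factor. Of 10 fibroblast markers, 7 were called with Twist1 and 5 with Snai2, all positive, against a background of 0.757% and 0.593% of all genes called positive. The median r of the fibroblast markers was 0.74 with Twist1 and 0.70 with Snai2, against medians of -0.01 and 0.02 over all genes. The collagen gene Col1a2 had an r of 0.85 with Twist1 (slope 0.93 ± 0.14 SE, edgeR adjusted p = 0.00121) and of 0.84 with Snai2 (adjusted p = 0.00208). Thy1, a surface glycoprotein of fibroblasts, had an r of 0.85 with Snai2 and 0.83 with Twist1.

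The genes commonly raised in EMT went the same way. Of 11 such genes, 5 were called with Snai2 (Sparc, Fn1, Lox, Cdh11 and Itga5), against the same 0.593% of all genes, with a median r of 0.68, and 2 were called with Twist1 (Lox and Sparc), with a median r of 0.58. All 11 also had a positive r with Zeb1 (median 0.48) and with Zeb2 (median 0.59), and 0 were called with either. At an unadjusted edgeR p under 0.05, 9 went with Zeb1 and 8 with Zeb2, as did 906 and 1537 of 18882 genes. The matrix glycoprotein Sparc had an r of 0.84 with Snai2 (edgeR adjusted p = 0.00208), and fibronectin (Fn1) was the only gene of the list called with Vim (r 0.76, adjusted p = 0.0147), where 0.953% of all genes were called positive. Acta2 and Kcnj8 of the cell type lists were also called with Vim (r 0.65 and 0.69, edgeR adjusted p = 0.0458 and 0.0276). Of the other EMT factors, Prrx1 was called with Snai2 (r 0.74) and Twist1 (r 0.73), and the other 8 tested were called with neither. Lo_4, the tumor with the most Snai2 and Twist1, also had the highest summed fibroblast, endothelial and EMT-raised gene levels. It further held 501 CPM of skeletal muscle genes (lowest 1.27 in Hi_4, highest 860 in Hi_6). Its adipocyte markers summed to 51.3 CPM (lowest 6.39 in Hi_4, highest 54.8 in Hi_9). Markers of several other cell types had positive median r values with both genes as well. The 8 basal and myoepithelial markers had a median r of 0.14 with Snai2 and 0.10 with Twist1, with values down to -0.15 and -0.22. Their summed level had an r of 0.80 with Snai2 and 0.66 with Twist1. The contractile gene Acta2, at 15.4 RPKM the highest of that list, was called with both, and Myh11 with Snai2. The endothelial markers had a median r of 0.56 with Snai2 (0 called) and 0.53 with Twist1 (Tek called), and the skeletal muscle genes of 0.37 and 0.61 (0 called with either). At an unadjusted edgeR p under 0.05, 8 endothelial markers and 1 skeletal muscle gene went with Snai2, as did 2710 of 18882 genes. With Twist1, 7 endothelial markers and all 6 skeletal muscle genes did, as did 1603 of 18882 genes. The part of these cell types in the relations was not tested. Collagens, Sparc, Fn1 and Lox are made by fibroblasts as well as by cells in EMT, and these lists do not separate the cells.

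With the fibroblast marker score added as a covariate, 0 of the fibroblast and 0 of the EMT-raised genes were called with Snai2, and Twist1 had an adjusted p of 0.565 with Snai2 (edgeR). In the same setting Fn1 and Kcnj8 stayed called with Vim (edgeR adjusted p = 0.0031 and 0.0131), and Acta2 did not (0.0884). The slope of Fn1 on Vim was 0.61, against 0.84 without the score. The score contains the fibroblast genes themselves. With a leukocyte marker score in its place, 2 genes of each list stayed called with Snai2. The part of cell makeup in these relations was not tested beyond these fits.

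Zeb1 went with endothelial markers. Of 8 such markers, 5 were called with Zeb1 (Emcn, Kdr, Tie1, Esam and Pecam1), all positive, with a median r of 0.76 and a highest r of 0.79 for endomucin (Emcn, slope 1.06 ± 0.19 SE, edgeR adjusted p = 0.0235), where 0.18% of all genes were called positive. The pericyte genes Rgs5 (r 0.76) and Pdgfrb (r 0.84), the latter from the fibroblast list, were also called with Zeb1. Rgs5 was the only 1 called of 6 pericyte and smooth muscle genes, whose median r was 0.41, with values down to 0.015. Pdgfrb was the only 1 called of 10 fibroblast markers, all positive with a median r of 0.52. Of these 10, 8 had an unadjusted edgeR p under 0.05, as did 906 of 18882 genes. Zeb1 was lowest in Hi_11 and Lo_3, whose summed endothelial markers (68.2 and 59.6 CPM) were, with those of Hi_3 (67.9 CPM), the 3 lowest. Without Lo_6 and Hi_11, the most distant tumors in Zeb1, 0 endothelial markers were called, as with the fibroblast or the leukocyte score as a covariate. The slopes of Emcn, Kdr, Tie1, Esam and Pecam1 on Zeb1 were 0.93 to 1.09 over all tumors. Without those 2 tumors they were 0.96 to 1.31 (edgeR adjusted p of 0.0809 to 0.311). With the leukocyte score they were at least 0.86 (edgeR adjusted p of 0.0536 to 0.0661). With the fibroblast score they were 0.60 to 0.86 (edgeR adjusted p of 0.99999 for each). The cause of these changes was not tested. Zeb2 had positive r values with all 10 fibroblast markers (median 0.63) and all 8 endothelial markers (median 0.55), of which 0 were called although 10 and 7 had an unadjusted p under 0.05, in a fit in which 0.0318% of all genes were called and 8.14% had such a p.

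The lists of epithelial junction genes gave few calls. With Cdh1, the median r was 0.23 for 10 adherens junction genes, 0.37 for 11 tight junction genes and 0.18 for 9 desmosome genes, and 0 of them were called, as were 0 of the 10 epithelial regulators such as Grhl2 and Esrp1 (median 0.34). Background was also low, since 0.0318% of all genes were called with Cdh1. At an unadjusted p under 0.05, 3, 5, 1 and 6 genes of these lists went with Cdh1, as did 16.1% of all genes. With Epcam, Cldn3, Cldn4 and Cldn7, 0 genes of these 4 lists were called either. Of the catenins, which bind E-cadherin or link it to the cytoskeleton, beta-catenin (Ctnnb1) at 193 ± 21.7 and alpha-catenin (Ctnna1) at 99.96 ± 10.3 RPKM were above the mean level of Cdh1 (n = 20). Plakoglobin (Jup) at 64.8 ± 8.95 and p120-catenin (Ctnnd1) at 59.6 ± 5.47 RPKM were below it. The other claudins were not called with any adhesion gene, and Cldn10 was called with Vim (r 0.64, edgeR adjusted p = 0.045).

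Cldn3 was the only adhesion gene with calls in the marker lists. Krt14, a keratin of basal cells, was lower where Cldn3 was higher (r -0.63, edgeR adjusted p = 0.0182), and Cd68, a lysosomal protein of macrophages, was higher (r 0.77, adjusted p = 0.0412), in a fit in which 0.514% of all genes were called. Hi_3, the tumor with the least Cldn3, had 21.7 CPM of Krt14 and 27.3 CPM of Krt5, against medians of 0.189 and 1.06 CPM, and the lowest Cd68 level (12.8 CPM). Neither gene was called without Hi_3 and Hi_4 or with the Lo or Hi label as a covariate. The basal and myoepithelial markers as a list had a median r of -0.43 with Cldn3 and -0.29 with Cldn4, and their summed level was lowest in Hi_11 (35.6 CPM) and highest in Hi_3 (90.8 CPM). The 10 leukocyte markers as a list had a median r of 0.16 with Cldn3, with values from -0.35 to 0.77, and Cd68 was the only 1 called. With Cldn7 their median r was 0.51 (0 called), and 6 had an unadjusted edgeR p under 0.05, as did 1424 of 18882 genes. The 8 epithelial markers all had a positive r with Cldn3 (median 0.44, 0 called), and 4 had such a p, as did 2769 of 18882 genes. With Cldn7, Epcam, Cldn4 and Cdh1 their median r was 0.43, 0.37, 0.37 and 0.15 (0 called). Their summed level was lowest in Hi_3 (1777 CPM).

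**Figure D4:**
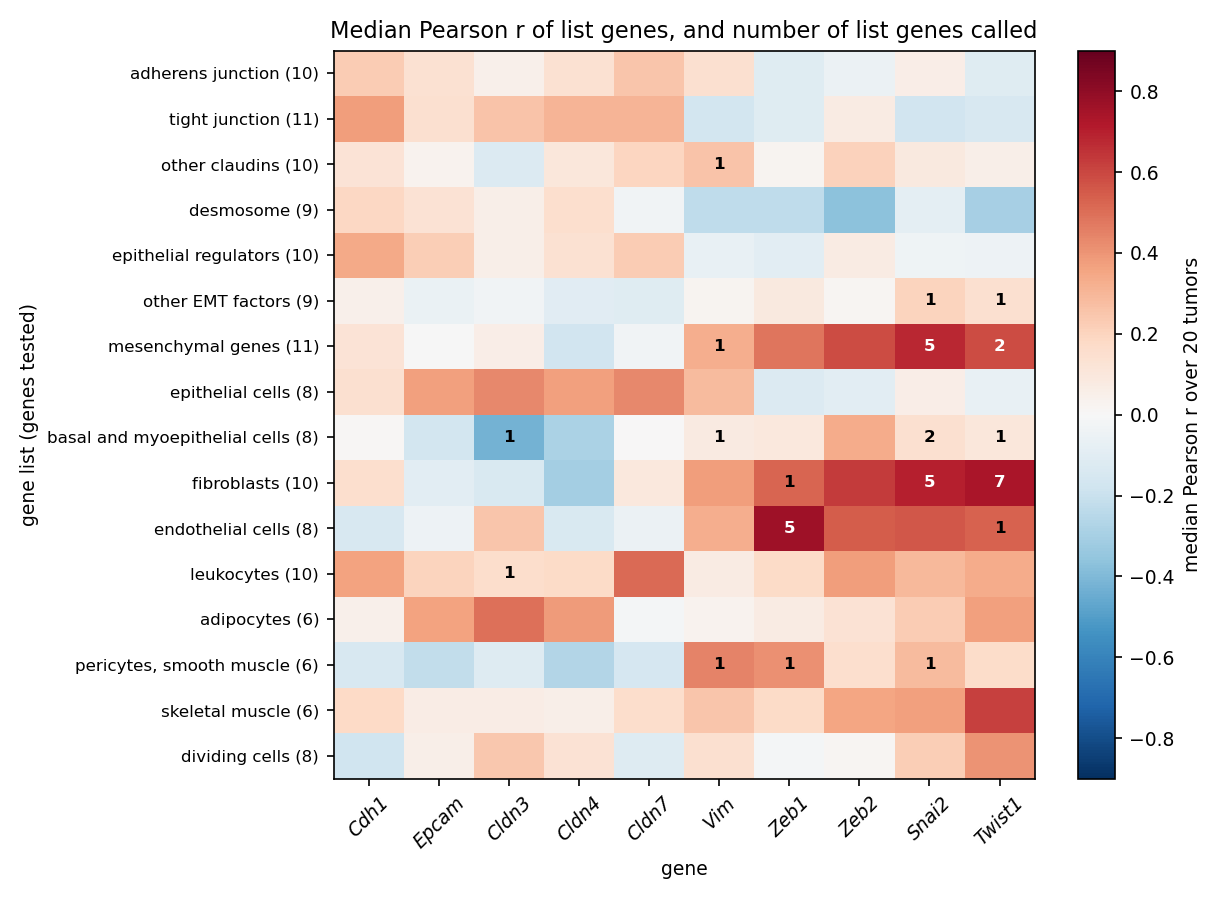
Median Pearson r over 20 tumors (color) of the genes of 16 lists (rows, with the number of genes tested) with each of the 10 genes (columns), where printed digits are the number of list genes called at an adjusted p under 0.05. Twist1 and Snai2 stand out with fibroblast markers (7 and 5 called) and Zeb1 with endothelial markers (5 called).

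Over all genes, the number called with a member differed widely, from 355 with Vim (1.88%), 164 with Epcam, 151 with Twist1, 131 with Snai2 and 97 with Cldn3 to 35 with Zeb1 (0.185%), 6 with Zeb2, 6 with Cdh1, 1 with Cldn7 (0.0053%) and 0 with Cldn4. For Cldn4, limma-trend also called 0 genes, and 1445 (7.65%) had an unadjusted p under 0.05 in edgeR. Without the 2 farthest tumors, which also leaves fewer tumors and a narrower range, the counts were 17 for Vim, 46 for Twist1, 11 for Snai2, 1 each for Zeb1 and Cldn7, and 0 for Epcam, Cldn3, Zeb2 and Cdh1. The slopes of genes described below as most like a member were 1.13 for Ctsh on Epcam (1.04 over all tumors), 0.55 for Nosip on Cldn3 (0.58), 0.94 for Kdelr3 on Vim (0.90), 1.24 for She on Zeb1 (1.17) and 1.77 for Pam on Cdh1 (2.04).

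The genes most like each member were chosen by the highest r over 20 tumors among genes averaging at least 1 on the log2 CPM scale and are given as a description. Snai2 was most like Col6a2, a chain of collagen VI (r 0.87, and 0.84 without Lo_4 and Hi_4), and Emilin1, an elastic fiber glycoprotein (r 0.86). Twist1 was most like Sfrp2, a secreted WNT modulator (r 0.89), and Mfap2, a microfibril protein (r 0.88). Zeb2 was most like Plat, the tissue plasminogen activator (r 0.83), and Postn, the matrix protein periostin (r 0.82). Zeb1 was most like She (r 0.85) and Ptprb, an endothelial tyrosine phosphatase (r 0.84). Its most negative r was with periplakin, Ppl, a desmosome-associated protein (r -0.72), which was not called (edgeR adjusted p = 0.164). The 9 desmosome genes had a median r of -0.23 with Zeb1, and 0 were called.

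The adhesion genes and Vim had other neighbors. Epcam was most like Ctsh, the lysosomal protease cathepsin H (r 0.89; rho 0.93), and the calmodulin gene Calm2 (r 0.86). Cdh1 had an r of 0.83 with Pam, an enzyme of peptide amidation, which was 0.67 without Lo_2 and Lo_8. Cldn3 was most like Nosip (r 0.88) and the chloride channel protein Clic1 (r 0.87), Cldn4 most like Fam110c and the calcium-binding protein sorcin, Sri (both r 0.80), and Cldn7 most like Gm26642 (r 0.86) and the aminopeptidase Rnpep (r 0.82). Pam, Gm26642 and Rnpep lie on Chr1, whose median shift in log2 CPM was lowest in Lo_8 (-0.299), Hi_7 (-0.227) and Hi_5 (-0.135). Of these tumors, Lo_8 had the least Cdh1 and Hi_5 the most. The part of Chr1 in these relations was not tested. Vim was most like Kdelr3, a receptor that returns proteins to the endoplasmic reticulum (r 0.85), and Ckap4, a membrane protein of that organelle (r 0.83), and least like Ttll10 (r -0.87).

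**Figure D5:**
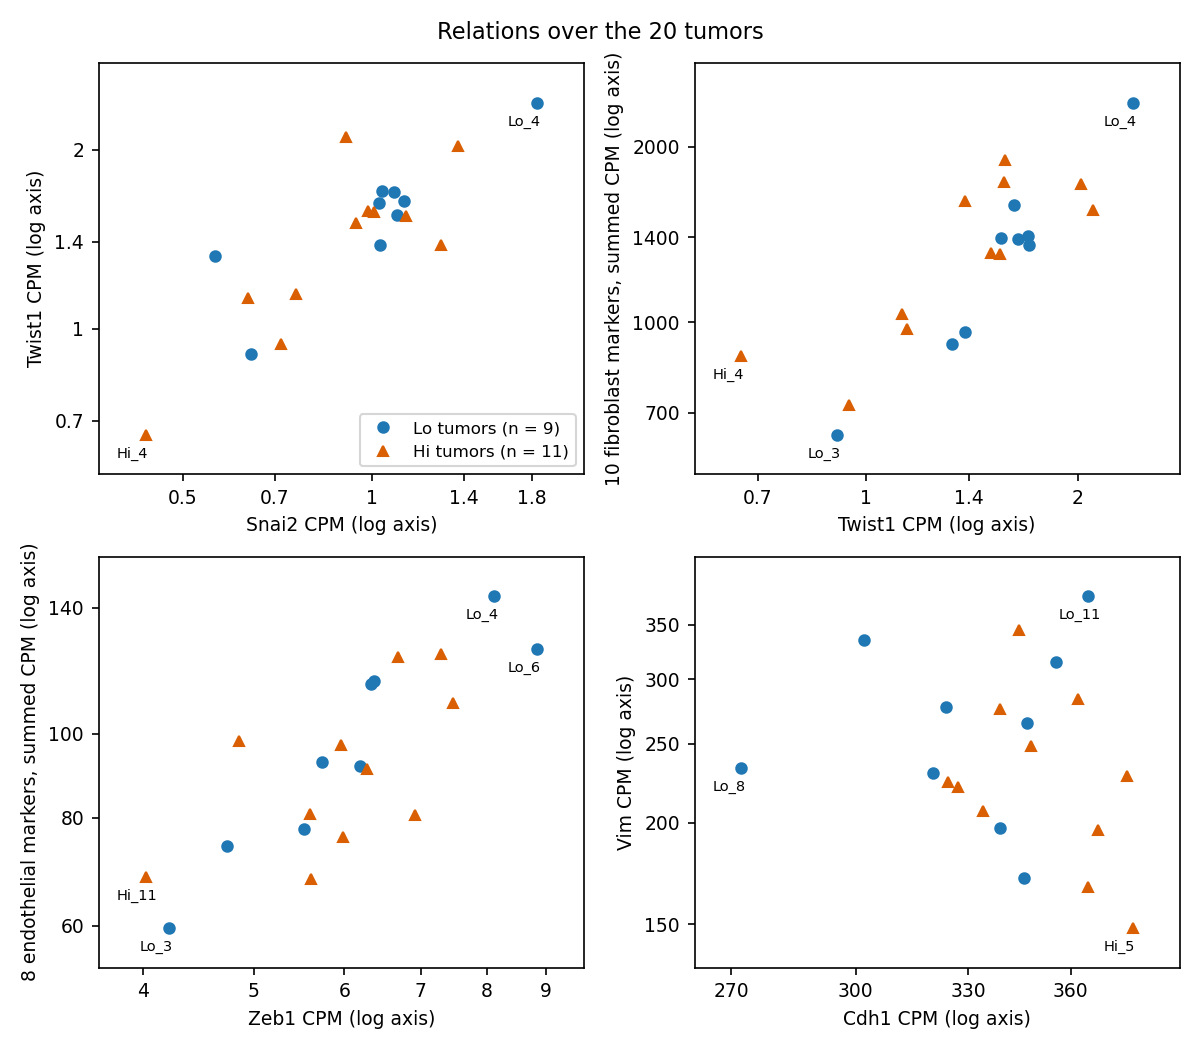
Levels in 9 Lo (circles) and 11 Hi tumors (triangles) on log axes, with the tumors at the ends of each range named: Twist1 against Snai2 CPM, summed CPM of 10 fibroblast markers against Twist1, summed CPM of 8 endothelial markers against Zeb1, and Vim against Cdh1. The first 3 panels rise (r of 0.84 for Twist1 with Snai2), while Vim and Cdh1 show an r of -0.19.

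No difference between Lo and Hi tumors passed edgeR's quasi-likelihood test in any of the 10 genes, and the ranges overlapped in all 10. Of the 18883 genes tested, 0 (0%) had an adjusted p under 0.05 and 1045 (5.53%) an unadjusted p under 0.05; DESeq2 called 1 gene. Vim had the largest difference, with 267 ± 67.2 CPM (SD, n = 9) in Lo and 231 ± 55.7 CPM (SD, n = 11) in Hi, a log2 difference (Hi minus Lo) of -0.21 ± 0.15 (SE). Cdh1 was at 330 ± 29.0 CPM in Lo and 352 ± 19.7 CPM in Hi, a log2 difference of 0.09 ± 0.06 (SE), and was the only 1 of the 10 genes with a higher fitted level in Hi, although the sign of Epcam changed with other scaling and that of Cldn4 and Cldn7 with a replicate block. The log2 differences were -0.18 ± 0.21 for Snai2, -0.16 ± 0.19 for Twist1 and -0.10 ± 0.09 for Cldn3, and those of Epcam, Cldn4, Cldn7, Zeb1 and Zeb2 lay between -0.04 and -0.0047. The labels pair no Lo tumor with a Hi tumor, and each tumor came from its own mouse.

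Tumor cells can gain or lose whole chromosomes, and the level of each gene was therefore set against the dosage of its own chromosome, measured as the median shift in log2 CPM of the other genes on it. Of 18228 autosomal genes, 2175 (11.9%) followed their chromosome at an adjusted p under 0.05, and 0 of the 10 genes did, nor did any have an unadjusted p under 0.05 in that regression. Vim on Chr2 had the highest r at 0.44 (permutation p = 0.0532; rho 0.40, permutation p = 0.0812; adjusted p = 0.201), with an r of 0.60 in Lo and -0.28 in Hi tumors. Zeb2 lies on the same chromosome and had an r of -0.11. Cdh1 on Chr8 had the most negative r at -0.37 (permutation p = 0.105; rho -0.46, permutation p = 0.0451), with an r of -0.59 in Lo and -0.37 in Hi tumors and of -0.54 without Lo_4 and Hi_1.

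Technical measures were set against the same levels. The slope of expression on gene length, which can follow RNA quality, had an r of 0.59 with Cdh1 (permutation p = 0.00698; rho 0.61, permutation p = 0.00465) and of 0.56 with Snai2 (permutation p = 0.0107; rho 0.49, permutation p = 0.0275), with adjusted p-values of 0.0713 and 0.0967 over all genes, of which 5.74% were called. Both were 0.50 and 0.51 without Lo_4 and Lo_8. With the ribosomal RNA locus share (0.0741% of all genes called) and the total count (0%), 0 of the 10 genes were called, and the part of these measures in the relations above was not tested.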

How the data were processed

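RNA of 20 tumors was sequenced as paired-end reads, which were cut to 100 bases by the authors, with mm10 alignment by TopHat2 2.0.12 in MapRseq. The deposited values are raw counts of reads per gene from featureCounts 1.4.4 (submitters' processing notes, which also list hg19), with 1 column per tumor, nothing pooled and 0 columns unused. The strand setting and annotation release are not given in the sources used here, and the authors' deposited table also lists a length per gene, which was used as it stands.

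CPM used TMM factors (for log2 CPM, a prior count of 2 was added), and RPKM from counts, listed length and total count. Lo and Hi were compared, and every gene was fitted on the log2 CPM of each member, with edgeR 4.0.16 (filterByExpr, quasi-likelihood test, Benjamini-Hochberg adjustment over all genes at 0.05) in R 4.3.3. Alternatives were limma 3.58.1, DESeq2 1.42.0, RLE factors, no filter, covariates and fewer tumors. Other values came from Python 3.11.15 with scipy 1.17.1, and permutation tests were two-sided with 100000 permutations. Scripts were tested on simulated data.

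A slope is in log2 units of a gene per log2 unit of the member. P-values measure the spread between tumors, and reads carry no molecular identifiers, so counting errors cover counting only. The named genes were the members, for each the 2 genes of highest and the 1 of lowest r among non-members averaging at least 1 on the log2 CPM scale, list genes at the ends of their lists, and up to 3 genes per direction between Lo and Hi. A gene that this rule names for Cdh1 is not reported here. Genes listed as Afdn and Adgre1 were found under the older symbols Mllt4 and Emr1. The members and lists were chosen with earlier results of these data known. Krt5 and the other list genes not at an end of their list were named after their values were seen.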

Additional observations from a re-analysis of the deposited data

Results flagged for a closer look

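In the 9 Lo tumors, the Snai2 level of Lo_4 (1.83 CPM) lay farther from the other 8 than expected of 1 set of values by Dixon's test, with a gap to the next tumor of 0.557 of the whole range, above the 95% critical value of 0.493. No such gap was found for the other 9 genes in the Lo tumors, and the 11 Hi tumors were not tested in this way. Among 10 groups tested, chance gives about 0.5 such gaps (about 1 in 20). The test was run on CPM and not on log2 CPM, the scale of the spreads and relations above. On the log2 CPM scale, Lo_4 was at 0.90, the next tumor (Lo_1) at 0.22 and the lowest (Lo_7) at -0.73, which shortens the gap relative to the range. Lo_4 also had the highest Twist1 level (2.40 CPM) and the highest summed fibroblast markers (2380 CPM), and the part of these markers in its Snai2 level was not tested.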

How the results depend on the processing

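Leaving out the 2 tumors most distant from a member's median lowered the number of genes called from 6 to 0 for Cdh1, 164 to 0 for Epcam, 97 to 0 for Cldn3, 355 to 17 for Vim, 35 to 1 for Zeb1, 6 to 0 for Zeb2, 131 to 11 for Snai2 and 151 to 46 for Twist1. These fits use fewer tumors and a narrower range by construction. Without a filter on low counts, 273 genes were called with Epcam, 247 with Cldn3, 103 with Cldn4, 8 with Cldn7, 31 with Zeb2 and 256 with Snai2, and 1 (Mir7671, higher in Hi) between Lo and Hi. DESeq2 also called 1 (Serpina3g, lower in Hi). With Lo or Hi as a covariate, the counts were 0 for Cdh1, 42 for Cldn3, 0 for Cldn7 and 20 for Zeb1. The fibroblast score as a covariate gave 0 for Cdh1, 561 for Epcam, 775 for Vim, 0 for Zeb1, 2 for Zeb2, 0 for Snai2 and 1 for Twist1, and the leukocyte score 1, 83, 786, 5, 0, 26 and 31 for the same genes. RLE factors gave 3 for Cdh1 and 0 for Cldn7, and limma-trend 18 for Cdh1. The cause of these changes was not tested.

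The pair Snai2 with Twist1 was called under RLE factors, limma-trend, the Lo or Hi covariate and no filter, and 0 pairs were called with the fibroblast score, with the leukocyte score or without the 2 farthest tumors. In this order of settings, the genes called were 0, 2 and 3 of the EMT-raised list with Snai2, 0, 2 and 1 of the fibroblast list with Snai2, 0, 2 and 4 of the fibroblast list with Twist1, and 0, 0 and 0 of the endothelial list with Zeb1. These list counts under other settings, and the transcript lengths, were chosen after the data were seen.

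The log2 difference (Hi minus Lo) of Epcam was 0.0034 with RLE factors, 0.0011 without a filter and 0.0034 with DESeq2, and those of Cldn4 and Cldn7 were 0.0072 and 0.00022 with a replicate block. The title numbers share no mouse, and only 3 of 9 same-numbered pairs of tumors had deviations that correlated above 0.1, with 1 pair in which the tumor correlated best with its own number. The block left 0 genes called (872 at an unadjusted p under 0.05). On the log2(RPKM + 1) scale, the SD was 0.15 for Cdh1, 0.18 for Cldn7, 0.11 for Zeb1, 0.072 for Zeb2, 0.15 for Snai2 and 0.20 for Twist1. The pseudocount of 1 exceeds the mean RPKM of each of the 4 factors, and for Cdh1 and Cldn7 the cause was not tested. With transcript lengths, RPKM was 102 for Cldn7, 112 for Vim, 1.06 for Zeb1 and 1.33 for Zeb2. Without the 2 tumors of farthest dosage, r with the own chromosome was -0.072 for Zeb1 and -0.083 for Twist1. The depth limits Snai2 and Twist1, whose counts per tumor were as low as 23 and 35.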
